A study of Mus musculus with 3 samples.

Results

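The genes described here are 9 transcription factor genes of the core pluripotency network of mouse embryonic stem cells: Pou5f1, Sox2, Klf4, Klf2, Esrrb, Prdm14, Tbx3, Tfcp2l1 and Sall4. They were chosen by name, for their place in this network, out of 22367 protein-coding genes of the GENCODE M1 annotation, and all 9 were found in it (Tfcp2l1 under its older symbol Tcfcp2l1). Genomic DNA of E14 cells, an established line of mouse embryonic stem cells, was sequenced by 3 methods with 1 library each, so every error below is a 95% interval for counting error (exact for levels, on the log scale for ratios) and covers neither culture nor library preparation. A fragment that spans several cytosines is counted at each of them, and the intervals take these counts as independent. They are therefore too narrow where CpGs lie close together, and their overlaps are given as a description. A count of 0 is given with the level that 3 modified reads would make. All 3 libraries came from the same kind of culture, on gelatin with serum, LIF and the inhibitors PD0325901 and CHIR99021, and there was no untreated or differentiated group to set them against. No RNA was measured, so the expression of these factors was not checked. The level averages over all cells and alleles of the culture, so fewer modified cells and less modification per cell cannot be told apart.

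TAPSβ reads 5-methylcytosine (5mC): 5-hydroxymethylcytosine (5hmC) is first blocked with glucose, and oxidised 5mC is then reduced by pyridine borane and read as T. CAPS reads 5hmC, which is oxidised chemically before reduction by another borane, pic-borane. PS applies pyridine borane alone and reads 5-formylcytosine (5fC) and 5-carboxylcytosine (5caC), the later products of TET oxidation. A level is the share of reads at CpG cytosines that were read as modified, summed over the cytosines of a region on both strands, with no correction for incomplete or false conversion. Over all CpG cytosines the level was 57.55% in TAPSβ, 3.136% in CAPS and 0.2462% in PS, with a median of 13, 9 and 10 reads per cytosine.

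As background, Pou5f1 (a POU-domain factor) and Sox2 (an HMG-box factor) bind DNA together at joint sites, and both are needed for the pluripotent state. Klf2 and Klf4 (Krüppel-like zinc finger factors), Esrrb (an orphan nuclear receptor), Tbx3 (a T-box factor) and Tfcp2l1 (a CP2-family factor) sustain self-renewal downstream of LIF and of the inhibitors, Prdm14 (a PR-domain zinc finger protein) represses de novo DNA methyltransferase genes, and Sall4 is a spalt-like zinc finger factor. Active promoters in CpG-rich sequence usually lack 5mC, and active distal enhancers are commonly low in 5mC with 5hmC at their borders, where TET enzymes turn 5mC over.

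In the mm9 assembly (NCBIM37) the genes spanned chr17:35642982-35647721 (Pou5f1, ENSMUSG00000024406.9), chr3:34548927-34551383 (Sox2, ENSMUSG00000074637.3), chr4:55540013-55545347 (Klf4, ENSMUSG00000003032.7) and chr8:74842932-74845555 (Klf2, ENSMUSG00000055148.7). The longer ones spanned chr12:87702067-87862578 (Esrrb, ENSMUSG00000021255.10), chr1:13103538-13117244 (Prdm14, ENSMUSG00000042414.7), chr5:120120678-120134733 (Tbx3, ENSMUSG00000018604.11), chr1:120524522-120581744 (Tfcp2l1, ENSMUSG00000026380.9) and chr2:168573832-168593443 (Sall4, ENSMUSG00000027547.11). Klf4, Prdm14 and Sall4 lie on the minus strand. Sox2 has a single exon and lies within the long noncoding gene Sox2ot. The promoter was taken as 500 bp on each side of the start of the transcript with the longest coding sequence, and the region of a gene as its bounds with 20 kb on each side.

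The 9 stretches below show the sequence around CpGs with modified CAPS reads, 1 for each gene, and hold a small part of the modified reads of their regions. Each is the 150 bp with the most modified CAPS reads, outside annotated exons, of the 1-kb bin with the highest CAPS level among the candidate enhancer bins of its gene (defined below). They were picked for that level, so their CAPS values are a description. The sequence is the plus strand of the mm9 assembly, with CpGs in capitals.
Pou5f1, chr17:35625250-35625399, 17.7 kb upstream: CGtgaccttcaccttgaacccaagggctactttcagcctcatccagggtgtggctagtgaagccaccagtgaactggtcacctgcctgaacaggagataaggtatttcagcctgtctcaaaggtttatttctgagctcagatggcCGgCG
Sox2, chr3:34542563-34542712, 6.36 kb upstream: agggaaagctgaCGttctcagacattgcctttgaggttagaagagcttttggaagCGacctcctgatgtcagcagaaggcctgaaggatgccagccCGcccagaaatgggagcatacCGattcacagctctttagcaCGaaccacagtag
Klf4, chr4:55535128-55535277, downstream: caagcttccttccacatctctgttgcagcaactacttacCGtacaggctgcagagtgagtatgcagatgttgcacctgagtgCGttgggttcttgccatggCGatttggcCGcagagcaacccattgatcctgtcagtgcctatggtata
Klf2, chr8:74833191-74833340, 9.74 kb upstream: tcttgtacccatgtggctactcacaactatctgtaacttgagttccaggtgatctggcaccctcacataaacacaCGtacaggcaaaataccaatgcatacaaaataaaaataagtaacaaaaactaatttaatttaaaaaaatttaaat
Esrrb, chr12:87825124-87825273, intron: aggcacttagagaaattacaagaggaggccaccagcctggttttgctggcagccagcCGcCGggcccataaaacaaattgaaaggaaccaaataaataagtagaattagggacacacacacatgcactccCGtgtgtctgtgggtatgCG
Prdm14, chr1:13092809-13092958, downstream: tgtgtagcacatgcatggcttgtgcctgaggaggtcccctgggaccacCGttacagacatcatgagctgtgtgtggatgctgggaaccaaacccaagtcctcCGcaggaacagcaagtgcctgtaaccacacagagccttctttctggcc
Tbx3, chr5:120115823-120115972, 5.2 kb upstream: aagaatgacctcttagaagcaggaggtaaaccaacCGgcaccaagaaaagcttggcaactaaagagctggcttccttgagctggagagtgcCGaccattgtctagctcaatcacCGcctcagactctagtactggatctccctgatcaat
Tfcp2l1, chr1:120571032-120571181, intron: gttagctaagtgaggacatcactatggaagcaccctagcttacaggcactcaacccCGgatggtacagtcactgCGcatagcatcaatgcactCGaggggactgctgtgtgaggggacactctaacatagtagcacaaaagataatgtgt
Sall4, chr2:168601683-168601832, 9.13 kb upstream: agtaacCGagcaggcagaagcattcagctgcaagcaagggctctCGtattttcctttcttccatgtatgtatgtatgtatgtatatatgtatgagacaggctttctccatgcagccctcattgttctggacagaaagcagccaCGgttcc

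In the Tfcp2l1 stretch 21 of 93 CAPS reads were modified (22.6%, interval 14.6 to 32.4%) beside 25 of 106 TAPSβ reads (23.6%, interval 15.9 to 32.8%). The stretch was picked for its modified CAPS reads, so the closeness of these levels is not a result about 5hmC and 5mC. Its 3 CpGs differed: at the CpG of base 75, counted from the 5′ end of the stretch, 7 of 17 plus-strand reads and 5 of 16 minus-strand reads were modified in CAPS, and 12 of 17 and 8 of 19 in TAPSβ. At its CpG of base 57 only 1 of 19 and 1 of 18 TAPSβ reads were modified, while CAPS had 3 of 15 and 4 of 14. Across the stretches the part of 5mC varied. The Tbx3 stretch had 10 of 62 modified CAPS reads (16.1%, interval 8.02 to 27.7%) and 19 of 131 modified TAPSβ reads (14.5%, interval 8.96 to 21.7%). In the Klf2 stretch a single CpG carried the reads, with 7 of 21 modified on its minus strand and 1 of 16 on its plus strand in CAPS, beside 13 of 28 and 12 of 22 in TAPSβ. These stretches hold few reads each, and the CAPS interval of the Klf4 stretch (10 of 39 reads, 25.6%) ran from 13 to 42.1%. The Prdm14 stretch had 5 of 44 modified CAPS reads (11.4%, interval 3.79 to 24.6%). None of its 4 cytosines was called by the test of single cytosines described below.

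The promoters of all 9 genes were nearly free of 5mC. The pooled TAPSβ level was 0.955% (190 of 19898 reads, interval 0.824 to 1.1%), the CAPS level 0.872% (interval 0.698 to 1.08%) and the PS level 0.296% (interval 0.204 to 0.416%). All 9 lay under 10% in TAPSβ, as did 60.2% of the 20864 promoters measured, so that this count alone sets them apart little. The median promoter of all genes had 3.04% in TAPSβ and 1.24% in CAPS. The false-positive rates that the study states for CAPS and PS lie within the pooled promoter intervals of these libraries, so neither pooled level was distinguished from background. Of the single promoters, the CAPS intervals of Esrrb (0.743 to 2.37%) and Prdm14 (1.24 to 3.75%) began above the stated CAPS rate, that of Esrrb only just, and with 250 bp on each side the Esrrb level, 0.648%, lay under it.

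The promoters of the Oct and Sox partners read lowest in TAPSβ, with intervals that overlapped those of Tbx3, Klf2, Klf4, Tfcp2l1 and Sall4. The false-positive rate that the study gives for TAPSβ lies within the intervals of Pou5f1, Sox2, Tbx3, Klf2 and Klf4. Their levels were therefore not distinguished from background. Pou5f1 had 0 of 1076 modified TAPSβ reads, which allows a level of up to 0.279%, with 4 of 614 in CAPS and 2 of 664 in PS. Sox2 had 3 of 2716 reads (0.11%) in TAPSβ, 8 of 1368 (0.58%) in CAPS and 5 of 1392 in PS. The Krüppel-like pair were alike: Klf4 had 0.36% in TAPSβ and 0.206% in CAPS, and Klf2 0.31% and 0.315%. For Klf4 the CAPS value rests on 972 reads at 224 cytosines and its interval reached 0.741%. Tbx3 had 0.126% in TAPSβ and 1.1% in CAPS, Tfcp2l1 0.498% and 1.01%, and Sall4 0.496% and 0.898%. The highest of these 3 TAPSβ intervals ended at 0.89%.

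Esrrb and Prdm14 stood above the other 7, with no overlap of the TAPSβ intervals. Esrrb had 91 of 1889 modified reads in TAPSβ (4.82%, interval 3.9 to 5.88%), 1.39% in CAPS and 1 of 1022 reads in PS. Prdm14 had 51 of 1187 (4.3%, interval 3.22 to 5.61%) in TAPSβ and 2.25% (interval 1.24 to 3.75%) in CAPS, an interval that overlapped those of Pou5f1, Esrrb, Tbx3, Tfcp2l1 and Sall4. The difference depended on the width of the window: with 250 bp on each side Esrrb read 0.772% and Prdm14 0.712% in TAPSβ, beside 0.487% for Klf4, and in CAPS Prdm14 read 1.02% and Sall4 1.62%. Both values with 500 bp lie near the middle of all promoters, of which 54.7% and 53.7% were lower in TAPSβ. The choice of start matters for Esrrb: around the outermost annotated start at chr12:87702067, upstream of the start used, TAPSβ read 41.1% (226 of 550 reads) and CAPS 12.4% (37 of 298 reads, interval 8.9 to 16.7%). Around the outer start of Sall4 at chr2:168593443 the levels were 6.59% and 2.76%.

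**Figure D1:**
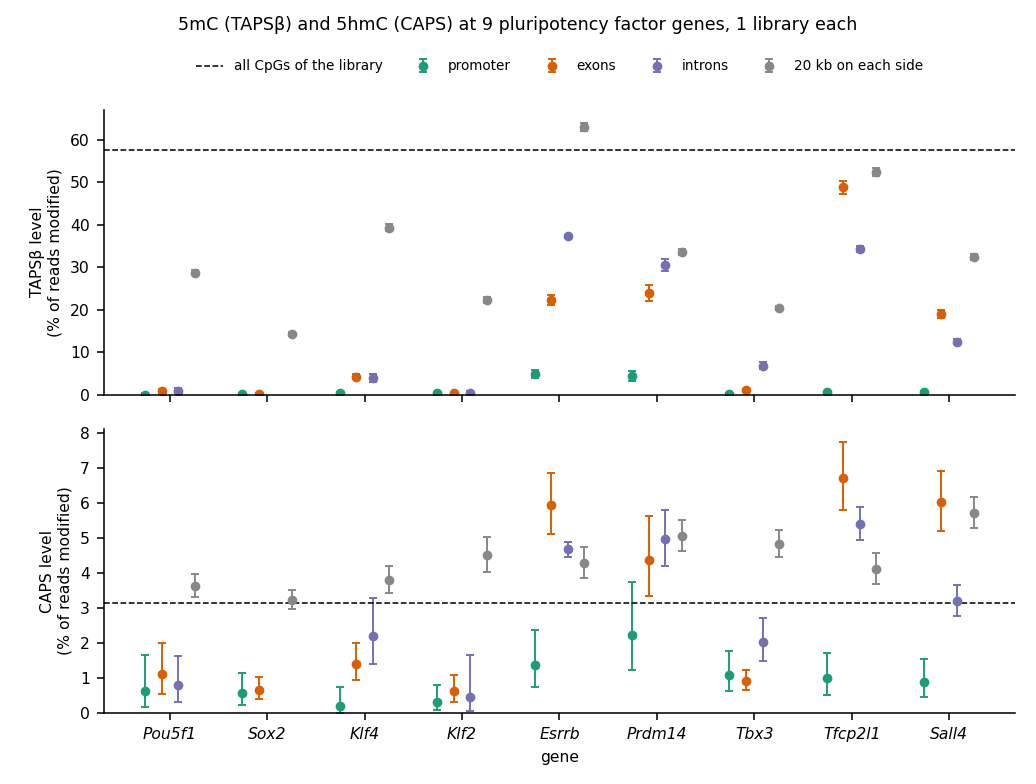
Level in percent of reads modified (y axes) of TAPSβ above and CAPS below for each gene (x axis), as points with exact 95% counting intervals for the promoter, exons, introns and the 20 kb on each side; the dashed line is the level of all CpGs of the library. All 9 promoters lie under 5% in TAPSβ, whereas the flanks run from 14.2% for Sox2 to 63.1% for Esrrb.

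The low methylation reached well beyond the promoters. Over the gene and 20 kb on each side the pooled TAPSβ level was 28.15% (79614 of 282847 reads), against 57.55% for all CpGs, and the CAPS level was 4.181% (interval 4.089 to 4.275%), against 3.136%. The pooled CAPS level leans on Esrrb, the longest region, with 49780 of 179612 reads. The median locus CAPS level over the 9 genes was 3.54%, against 3.85% for 24 other network genes, 3.4% for 19 lineage factor genes (both lists described below) and 3.24% for all genes. The median locus TAPSβ levels in the same order were 24.6%, 35%, 32.1% and 52%, so both lists also lay under all genes. The locus TAPSβ level ran from 11.9% at Sox2, through 13.8% at Tbx3, 15.1% at Klf2, 23.6% at Sall4, 24.6% at Pou5f1, 29.1% at Klf4, 32% at Prdm14 and 40.2% at Esrrb, to 43.4% at Tfcp2l1. The intervals of Sall4 and Pou5f1 touched (23.1 to 24.05% and 24.03 to 25.2%), and those of all other neighbours in this order did not overlap. Among 21655 genes with at least 20 usable bins, whose median was 52%, only 0.097% had a lower level than Sox2, 0.194% than Tbx3 and 0.305% than Klf2, but 22.2% were lower than Esrrb and 29.3% lower than Tfcp2l1. CpG density differed too: Sox2 had 24.3 CpGs per kb, Sall4 20.2 and Tbx3 19.8, while Tfcp2l1 had 7.88, against a median of 10.8, and the part of density in these levels was not tested.

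The CAPS order was different. Tfcp2l1 had the highest locus CAPS level (5.07%), followed by Prdm14 and Sall4 (both 4.97%), Esrrb (4.69%), Tbx3 (3.54%), Klf2 (3.47%), Pou5f1 (3.28%), Klf4 (3.27%) and Sox2 (2.85%). The intervals of the first 4 overlapped, as did those of Tbx3, Klf2, Pou5f1 and Klf4, and the interval of Sox2 (2.62 to 3.09%) overlapped those of Pou5f1 and Klf4. Only 2.22% of genes had a higher locus CAPS level than Tfcp2l1, whereas 67% had a higher level than Sox2.

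Inside the genes, exons and introns fell into separate patterns. Pou5f1, Sox2 and Klf2 were low in 5mC, with exon TAPSβ levels of 0.847%, 0.231% and 0.261%, and Klf4 had 4.15% in exons and 3.88% in introns. Sox2 has no intron. The bin at the 3′ end of Pou5f1 (chr17:35647001-35648000) read 13.8% (63 of 458 reads), and away from starts the Pou5f1 exons read 2.64% and its introns 0.394%. Klf4 read 6.64% and 7.78% away from starts. Tbx3 had 1.12% in exons (102 of 9141 reads) and 6.73% in introns (231 of 3432), an exon-to-intron ratio of 0.166 (interval 0.132 to 0.209), and its CAPS ratio was 0.45 (interval 0.298 to 0.677). Both marks were thus lower in its exons, also away from starts, where the ratios were 0.258 and 0.482.

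The opposite held for Tfcp2l1 and Sall4. Tfcp2l1 exons carried 48.9% and its introns 34.3% in TAPSβ (ratio 1.42, interval 1.37 to 1.48), with 6.73% and 5.4% in CAPS (ratio 1.25, interval 1.06 to 1.47). Sall4 exons carried 19% and introns 12.4% in TAPSβ (ratio 1.53, interval 1.42 to 1.65), and 6.02% and 3.2% in CAPS (ratio 1.88, interval 1.55 to 2.28). Away from starts the Sall4 levels were higher (29% and 21.7% in TAPSβ, 8.06% and 4.78% in CAPS), with ratios of 1.34 and 1.69. Esrrb exons had 22.3% and introns 37.3% in TAPSβ (ratio 0.598), and 5.95% and 4.68% in CAPS. Its TAPSβ ratio depends on the first exons: without cytosines within 500 bp of any annotated start it turned to 1.035, while the CAPS ratio went from 1.27 to 1.89. Prdm14 had 23.9% in exons and 30.5% in introns in TAPSβ (ratio 0.784, interval 0.718 to 0.857), but as means of single cytosines both read 30.83%, so the difference depended on how reads were weighted. Its CAPS interval (0.655 to 1.19) included 1.

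The regions were then divided into 1-kb bins on a fixed grid. Of 650 bins, 643 had at least 4 cytosines and 40 reads in both TAPSβ and CAPS. A bin was low with a TAPSβ level under 30% and high with a CAPS level of 8% or more, and either kind was named a candidate enhancer where it lay over 500 bp from every annotated transcript start. No histone mark, factor binding or activity was measured, so the name stands for the methylation pattern alone. Low bins made up 38.3% of the bins of these regions (246 of 643), against 5.1% of all eligible bins of the genome. High CAPS bins made up 17.3% (111 of 643), against 4.67%. Of 577 bins away from starts 275 were candidates (47.7%), against 7.87%. As a description of the depth behind these bins, the interval ended under 30% for 216 of the 246 low bins, and for 87544 of 110384 in the genome.

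Of the low bins 30 were also high in CAPS (12.2%), a share near the 11.7% of the genome. Among the candidates 199 were low and 106 high in CAPS. Inside the genes lay 128 candidates, 72 of them in Esrrb and 27 in Tfcp2l1, and outside lay 147. Bins that overlap exons were not left out. An annotated gene other than the member overlapped 53 of the 275, as Sox2ot does at every candidate of Sox2, so these bins may belong to a neighbour.

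**Figure D2:**
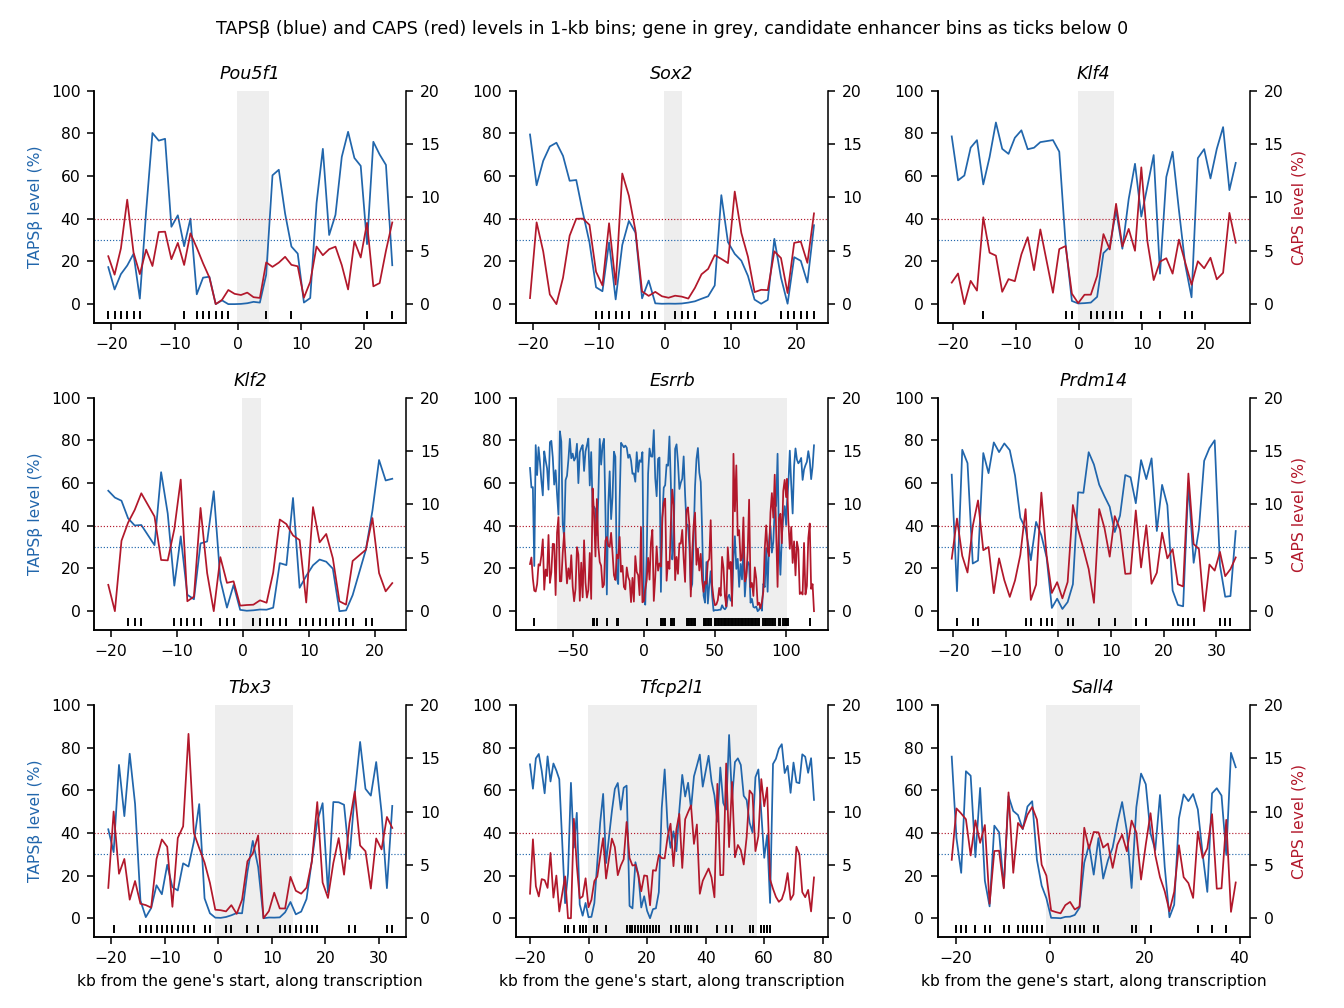
TAPSβ level (blue, left axis, %) and CAPS level (red, right axis, %, on a wider scale) of each 1-kb bin against its distance in kb from the start of the gene along transcription, with the gene in grey, dotted lines at 30% and 8% and candidate bins as ticks below 0. TAPSβ falls to near 0 at each promoter, and the long low stretches of Esrrb and Tfcp2l1 lie inside the gene.

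Pou5f1 sat in a low run of 12 bins (chr17:35636001-35648000, TAPSβ 2.8%, CAPS 1.48%) that covered the gene and the sequence before it. Its 3 lowest candidates lay next to each other upstream. The bin beginning at chr17:35639001 had 0 of 424 modified TAPSβ reads and 0 of 239 CAPS reads, which allow levels of up to 0.708% and 1.26%. The next had 6 of 340 and 1 of 252, and the bin beginning at chr17:35641001 had 0 of 616 and 4 of 302. As background, this gene has a proximal and a distal enhancer upstream of its start, the distal one being used in naive cells. Its highest CAPS level was 9.79% (14 of 143 reads), its only high CAPS bin, and 2.17% of its bins were high, against 4.67% of the genome. With the grid moved by 500 bp it had 2.

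Sox2 had the largest share of low bins, 68.2% (30 of 44), and 0.0462% of genes had a larger one. The low run over the gene covered 12 kb (chr3:34545001-34557000, TAPSβ 1.78%, CAPS 1.11%), and runs of 6, 7 and 5 kb lay on either side. Its lowest candidates in TAPSβ were chr3:34550001-34551000 (0.184%) and chr3:34551001-34552000 (0.295%), which overlap its own exon, and a bin 18.1 kb past the start (0.191%, 1 of 524 reads). The highest CAPS bins were at chr3:34542001-34543000 (36 of 294 reads, 12.2%), chr3:34559001-34560000 (10.6%) and chr3:34543001-34544000 (10.2%). The first was the last bin of a low run, the third the bin after it, and the other the second bin of the run of 7 kb past the gene.

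Klf4 and Klf2 differed in their surroundings. Klf4 had 12 low bins of 45 (26.7%) and its low run of 8 kb covered the gene, whereas Klf2 had 24 of 42 (57.1%) with a run of 11 kb over the gene and one of 9 kb past it. Klf2 also had 10 high CAPS bins (23.8%) and Klf4 had 4. These counts depended on the bins: Klf2 had 6 high CAPS bins where 100 reads and 8 cytosines were asked for, and the candidates of Klf4 went from 13 to 7 with the grid moved by 500 bp. In the run past Klf2 the bin beginning at chr8:74857001 had 0 of 190 modified TAPSβ reads, which allows up to 1.58%, and the next 0.372%, and CAPS read 0.926% and 0.614% there. The highest CAPS bin of Klf2 (12.3%) lay upstream at chr8:74833001-74834000 with TAPSβ at 35.1%, and that of Klf4 (12.8%) at chr4:55535001-55536000 with TAPSβ at 41%. The Klf2 bin rests on few cytosines: 4 had the reads to be tested singly in CAPS (described below) and 1 was called. The CpG of the Klf2 stretch lies in it, with 16 and 21 CAPS reads against a median of 9 per cytosine. The part of this depth was not tested.

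Esrrb held the longest runs. A run of 22 kb (chr12:87804001-87826000) had a TAPSβ level of 5.36% and a CAPS level of 3.34%, and a run of 17 kb (chr12:87833001-87850000) had 9.05% and 3.29%, both inside the gene, with a run of 5 kb between them. The runs of 22 and 17 kb each hold 1 annotated transcript start, and their bins within 500 bp of it were not candidates. Over the genome 64518 runs of low bins had a median of 1 kb and a 95th percentile of 4 kb, 211 reached 10 kb and 9 reached 20 kb, the longest being 27 kb. The lowest candidates were chr12:87842001-87843000 (TAPSβ 0 of 516 reads, which allows up to 0.581%), chr12:87813001-87814000 (0.468%) and chr12:87814001-87815000 (0.5%). The highest CAPS levels of its candidates were 14.8% at chr12:87825001-87826000, the last bin of the longer run, 13.7% at chr12:87827001-87828000, the first bin of the run of 5 kb, and 12.8% at chr12:87854001-87855000. By contrast the 20 kb on each side of the gene had 63.1% TAPSβ and 1 low bin of 40.

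Prdm14 had 17 low bins of 55 (30.9%), with a run of 6 kb over its start, and the low bins around chr1:13093001-13095000, past its end, had 2.29% and 2.94% in TAPSβ. The bin next to them, chr1:13092001-13093000, had the highest CAPS level of the gene (12.9%) with TAPSβ at 60%. Tbx3 had 33 low bins of 54 (61.1%), most of them in runs of 10, 9 and 11 kb before, over and past its start. Its bin at chr5:120115001-120116000, the last of the upstream run, had the highest CAPS level of any candidate (14 of 81 reads, 17.3%) with TAPSβ at 24.2%.

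Tfcp2l1 had 17 high CAPS bins of 95 (17.9%) and a low run of 11 kb inside the gene (chr1:120538001-120549000, TAPSβ 8.26%, CAPS 4.31%), intronic except for the third exon in its last bin. The bin at chr1:120545001-120546000 had 0 of 333 modified TAPSβ reads, which allows up to 0.901%. The highest CAPS levels of Tfcp2l1 were 14.5%, 13% and 12.8%, in bins with TAPSβ between 49.3% and 55.6%. In all 3 libraries the Tfcp2l1 region had more reads per cytosine than the genome (1.48, 1.38 and 1.45 times the mean in TAPSβ, CAPS and PS), more than any other of the 9, and its part in these levels was not tested. At the limit of 8% Sall4 had the largest share of high CAPS bins among the 9 genes, 32.8% (20 of 61), and 0.203% of all genes had a larger one. With the grid moved by 500 bp the count was 13, and with a limit of 10% it was 3, beside 9 of the 95 bins of Tfcp2l1, so that Sall4 no longer led. Of its 20 high bins 15 lay outside the gene, the highest upstream at 11.8% with TAPSβ at 57.2%.

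**Figure D3:**
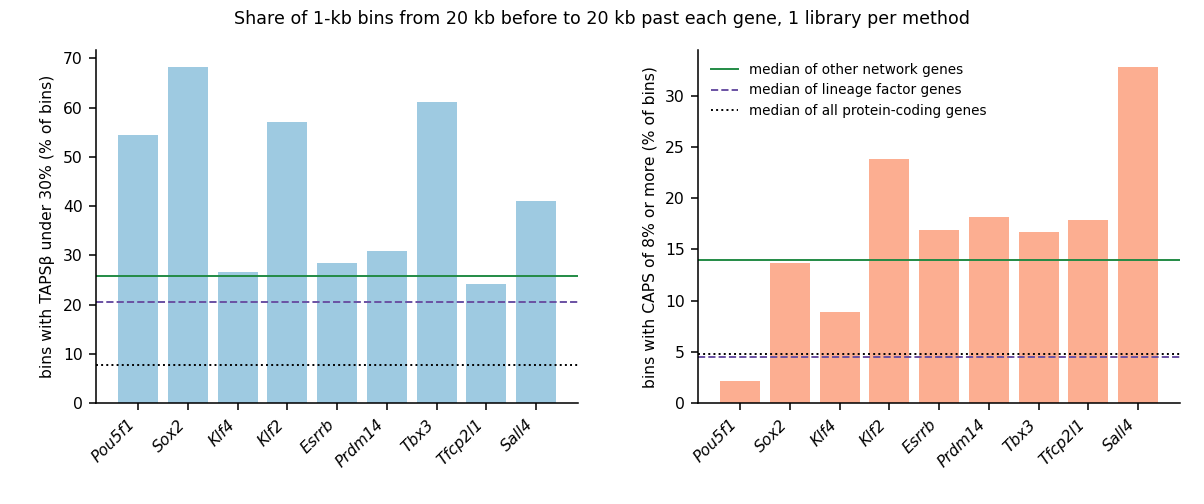
Share in percent (y axes) of the 1-kb bins of each gene's region with a TAPSβ level under 30% (left) and a CAPS level of 8% or more (right), as bars, with lines for the median share of other network genes, lineage factor genes and all protein-coding genes. All 9 bars on the left stand above the median of all genes (7.84%), while on the right Pou5f1 lies under its median (4.76%).

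For comparison, 2 further lists were counted the same way. Of 24 other network genes (among them Nanog, Zfp42 and Klf5) 20 promoters were under 10% in TAPSβ, and the median shares were 25.8% low bins and 14% high CAPS bins. The exceptions were Lifr (68.8%), Nr5a2 (66%), Il6st (54.3%) and Gbx2 (13.7%). These values hold for the start of the transcript with the longest coding sequence. Other starts of the genes of either list were not measured, so these genes may have an unmethylated promoter elsewhere. Of 19 lineage factor genes, such as Gata4 and Cdx2, 13 promoters were under 10%, and the median shares were 20.5% and 4.51%. For the 9 genes the medians were 41% and 16.9%, and for all genes 7.84% and 4.76%. The 95th percentile of the high CAPS share over all genes was 16.9%. The promoter of Nanog, a homeobox factor of the same network, read 9.76%, just under the threshold. No test was run between the lists, whose genes were chosen with such values known.

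5hmC was highest at middle levels of 5mC. Around the 9 genes the pooled CAPS level was 1.26% in bins with TAPSβ under 5%, 3.49% from 5 to 10%, 6.96% from 20 to 30%, and reached 7.58% (interval 7.05 to 8.13%) from 30 to 40% and 7.63% (7.18 to 8.1%) from 40 to 50%. It was 4.63% from 60 to 70% and 3.32% from 70 to 80%. The genome had the same shape at lower values, with its peak of 6.25% from 30 to 40% and 5.59% from 40 to 50%, and the interval of the 9 genes lay above the genome's in every class. In the 102 bins that were not low but touched a low bin, CAPS read 6.28% (interval 5.97 to 6.61%), above the 5.13% (4.96 to 5.31%) of the 295 other bins and the 3.08% of the low bins. The same 3 values over the genome were 5.1%, 3.05% and 2.95%. In TAPSβ the bins beside a low bin read 49.7% and the other bins 62.3% (54.3% and 67.5% over the genome), so 5mC differed as well. Its part in the CAPS difference was not tested.

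**Figure D4:**
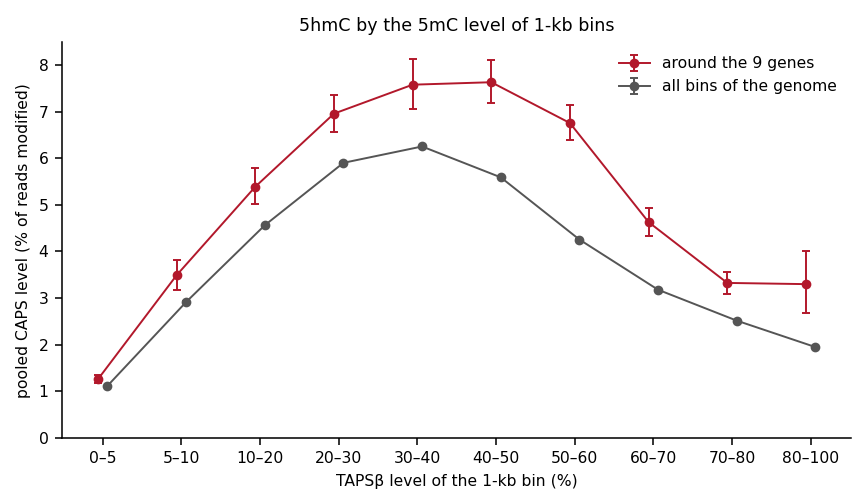
Pooled CAPS level in percent of reads modified (y axis) by the TAPSβ level of the 1-kb bin in percent (x axis), for bins around the 9 genes (red) and all eligible bins of the genome (grey), with exact 95% counting intervals. Both lines rise to TAPSβ levels of 30 to 50% and fall again, and the red points stand above the grey ones.

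At single cytosines 534 of 17189 tested (3.11%) were called in CAPS around the 9 genes, against 1.64% of the 36060655 tested in the genome (one-sided exact binomial test against the false-positive rate stated for CAPS in the study's methods, at least 5 reads, Benjamini-Hochberg adjusted p under 0.05). The share was highest at Tfcp2l1 (86 of 1513, 5.68%), the region with the most reads per cytosine, and at Sall4 (96 of 2049, 4.69%), and it was near the genome's at Klf4 (1.51%), Sox2 (1.77%) and Pou5f1 (1.79%). In the promoters 1 of 938 was called, in Tfcp2l1. The count depends on the background tested: against the pooled CAPS level of all CpGs it fell to 34 (0.198%, against 0.125% of the genome). A cytosine with a low level is rarely called at a median of 9 reads, so cytosines not called are not shown to lack 5hmC.

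In PS no cytosine of 17770 tested around the 9 genes was called by the same exact test, which allows a share of up to 0.0169%, against 0.0791% of all cytosines tested in the genome. At an unadjusted p under 0.05 there were 449 (2.53%), against 1.85% in the genome. A cytosine with a low PS level is rarely called at a median of 10 reads, whereas a sequence variant may be called. The part of variants in the calls of the genome was not counted. The pooled PS level was 0.2473% (interval 0.2257 to 0.2703%), and the 0.2462% of all CpGs lay within that interval. The stated false-positive rate of PS also lies within it, so PS levels here were not distinguished from background. Among the regions it ran from 0.193% at Esrrb to 0.303% at Sall4, whose intervals (0.158 to 0.234% and 0.237 to 0.381%) did not overlap. The stated rate lies above the Esrrb interval and within that of Sall4. In the low bins PS read 0.286% (0.255 to 0.32%) and in the bins neither low nor beside a low bin 0.2% (0.168 to 0.237%). The corresponding values over the genome were 0.288% and 0.237%. Around the 9 genes TAPSβ read 7.63% in the low bins and 62.3% in the bins neither low nor beside a low bin. The study also gives PS rates for methylated controls: under the stated rate in lambda DNA, above it in a synthetic spike-in. Background may thus vary with methylation, and its part in the PS differences between regions, bins and the genome was not tested.

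Letters of 4 binding motifs were searched on both strands in the bins away from starts. The octamer ATGCAAAT occurred in 4% of the 275 candidates and 4.3% of the 302 other bins of these regions, against 7.36% of the candidates of the genome and 8.15% of all bins away from starts. The core of the joint Oct and Sox site, TTGTNATGC, occurred in 3.64% and 1.66%, against 3.35% and 2.71%. For the Esrrb motif TCAAGGTCA the shares were 5.82% and 4.3%, against 4.31% and 2.26%, and for the Klf motif GGGTGTGG 13.1% and 7.95%, against 10.5% and 6.17%. These are counts of 10 to 36 candidate bins, and a match is a description of the letters, not a binding site. The neighbourhood of the motifs was low in 5mC here: within 250 bp of the 33 Esrrb motifs away from starts TAPSβ read 24.9% (interval 23.8 to 26.1%) and CAPS 5.84%, against 55% and 4.44% over 55456 such motifs of the genome. For the other motifs TAPSβ read 25% (Klf, 68 matches), 27.4% (octamer, 28 matches) and 29.5% (joint site, 17 matches), against 54.3%, 61.7% and 59.9%. CAPS read 3.88% around the Klf motifs, under the 4.08% of the genome, with an interval (3.53 to 4.25%) that held it. Around the octamers it read 5.07% and around the joint sites 6.09%, against 3.09% and 3.39%. In TAPSβ the pooled level of the whole regions, 28.15%, was of the same size, and in CAPS the whole regions read 4.181%. The whole regions include the sequence near starts, where no motif match was taken, so these sets are unlike.

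The joint Oct and Sox core occurred 17 times in these regions and began 11 times in a candidate bin, of which 8 had a CpG within 40 bp, in 4 genes. These 8 are printed as 81 bp of the plus strand with the 9 letters of the match in capitals, since they show the letters beside measured CpGs. They were chosen after the values were seen. The Pou5f1 match printed here crosses a bin border, so the bin shares above leave it out.
Pou5f1, chr17:35640962-35641042, 1.98 kb upstream: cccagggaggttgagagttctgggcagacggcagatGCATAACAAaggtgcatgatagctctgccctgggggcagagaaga
Sox2, chr3:34542744-34542824, 6.15 kb upstream: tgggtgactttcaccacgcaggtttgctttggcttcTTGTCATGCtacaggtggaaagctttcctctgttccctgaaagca
Sox2, chr3:34552937-34553017, 4.05 kb past the start: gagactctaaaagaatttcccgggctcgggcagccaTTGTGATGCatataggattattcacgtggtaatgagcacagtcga
Esrrb, chr12:87782353-87782433, intron: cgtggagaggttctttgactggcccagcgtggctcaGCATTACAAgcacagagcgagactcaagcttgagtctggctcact
Esrrb, chr12:87795899-87795979, intron: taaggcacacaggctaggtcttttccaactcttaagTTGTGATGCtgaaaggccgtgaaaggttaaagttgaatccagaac
Esrrb, chr12:87879371-87879451, downstream: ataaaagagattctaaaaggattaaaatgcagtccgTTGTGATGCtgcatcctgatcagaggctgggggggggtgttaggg
Prdm14, chr1:13084829-13084909, downstream: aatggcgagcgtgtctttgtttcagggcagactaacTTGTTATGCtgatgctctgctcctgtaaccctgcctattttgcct
Prdm14, chr1:13119734-13119814, 2.53 kb upstream: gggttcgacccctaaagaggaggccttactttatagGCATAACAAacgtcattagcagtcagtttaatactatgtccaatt

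The CpGs beside these matches ran from no modified TAPSβ read to 68% (17 of 25 reads, the Esrrb match past the gene, with 2 of 17 in CAPS). Beside the Pou5f1 match 1 of 40 TAPSβ reads and 0 of 17 CAPS reads were modified. At Sox2 the match past the gene had 3 of 132 TAPSβ reads and 3 of 118 CAPS reads, while the upstream one had 12 of 35 and 2 of 14. As background, enhancers with joint Oct and Sox sites are known both upstream of Pou5f1 and downstream of Sox2. In Esrrb the match at chr12:87782389-87782397 had 33 of 104 TAPSβ reads (31.7%) and 8 of 62 CAPS reads (12.9%, interval 5.74 to 23.9%), and that at chr12:87795935-87795943 had 1 of 32 and 0 of 24. At Prdm14 the downstream match had 0 of 55 and 0 of 23, and the upstream one 34 of 78 and 3 of 46. With 14 to 118 CAPS reads each, the counts of 0 in CAPS allow levels of up to 17.6% (Pou5f1), 12.5% (Esrrb) and 13% (Prdm14).

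Reads from processed copies could map onto exons and carry the methylation of the copy, so coverage was compared between exons and introns. The ratio of reads per cytosine in exons to that in introns lay between 0.888 and 1.09 in TAPSβ, 0.718 and 0.958 in CAPS and 0.819 and 1.1 in PS over the 8 genes with introns. Over 17253 genes the 5th and 95th percentiles were 0.787 and 1.19 in TAPSβ, 0.745 and 1.16 in CAPS and 0.836 and 1.18 in PS. Of 44 single exons that could be set against the intron within 500 bp, single ratios reached 1.43, 1.56 and 1.49 in TAPSβ, CAPS and PS, and none of the 44 was above 1.2 in all 3 libraries. The rest of the 56 exons, the only exon of Sox2 among them, could not be measured this way. The lowest CAPS ratio was that of Klf4 (0.718), whose CpG-rich first exon had 0.525 of the CAPS coverage of the intron beside it.

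Similar sequences do exist elsewhere. A search of the coding sequences against mm9 found 18 stretches with at least 80% identity over at least 150 bp, 9 of them in protein-coding genes such as Sox21, Sox14 and Tbx2 and 9 outside. Matches in related genes, such as Sox21 and Sox14 for Sox2 and Tbx2 for Tbx3, need not be processed copies. Pou5f1 had 5, among them 2 on chromosome 3 over its whole coding sequence, at 87.2% identity (chr3:129136591-129137633) and 82% (chr3:3829013-3830060), with TAPSβ levels of 44.1% and 63.5%. A 100% match of 164 bp lay in Rfwd2 (chr1:161223936-161224099, TAPSβ 18.8%). The 4 copies of Pou5f1 outside genes were methylated at 44.1% to 80.7%, while the Pou5f1 exons read 0.847%. Esrrb matched the annotated pseudogene Gm14663 on chromosome X (87.5% and 81.5% identity, TAPSβ 76.7% and 80%), Prdm14 a stretch on chromosome 12 (83.8% identity over 1134 bp, TAPSβ 59.9%) and Klf4 a stretch on chromosome 9 (92% identity over 312 bp, TAPSβ 51.1%).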

How the data were processed

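Whole-genome libraries of E14 genomic DNA were used, 1 each of TAPSβ, CAPS and PS, with no replicates. A PS-c library, which reads 5caC alone, is not analysed here. Per the submitters' processing notes, reads were trimmed with Trim Galore 0.3.1, aligned to mm9 with BWA 0.7.12 and freed of PCR duplicates with Picard 2.3.0. Per the study's methods, asTair called CpG cytosines from reads of mapping quality 10 or more. The study also dropped blacklisted regions and E14 variants, at a later step that may or may not precede the deposited files. The authors deposited, for each cytosine and strand, the modified and unmodified read counts, which were used here, and the modified fraction, which served to check the counts. Depth was a median of 13, 9 and 10 reads per cytosine in TAPSβ, CAPS and PS.

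Counts were pooled over promoters, exons, introns, flanks and 1-kb bins, with gene bounds from GENCODE M1 (NCBIM37), whose symbol Tcfcp2l1 was matched to Tfcp2l1 through RefSeq synonyms, and Sox1 was not matched. Intervals are exact (Clopper-Pearson, 95%), and ratios have log-scale intervals. Intervals and limits for counts of 0, taken as 3 counts of the total, cover counting error only. They take the counts of a fragment at several cytosines as independent. Cytosines with at least 5 reads were tested with a one-sided exact binomial test, adjusted by the Benjamini-Hochberg method over all tested cytosines of the genome. Named bins are the 3 candidates of lowest TAPSβ and of highest CAPS level of each gene. The members, gene lists and thresholds were chosen with earlier results of these data known. Copies were searched with blastn 2.17.0, using coding sequences rather than the spliced transcripts first planned, with limits of 80% identity and 150 bp that were lowered after the data were seen. Python 3.11.15, numpy 2.4.6, pandas 2.3.3, scipy 1.17.1 and matplotlib 3.10.9 were used, and the scripts were checked on simulated data.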

Additional observations from a re-analysis of the deposited data

How the results depend on the processing

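With 1 library per method, leaving out a replicate was not possible, and errors cover counting only. No paired analysis was possible because each method had 1 library and no test compared groups. Of 75 alternatives for the main answers 58 moved the value by less than its interval or kept the count within 1.5 times, and of 668 for single genes 548 did. The pooled promoter TAPSβ level was 0.304% with 250 bp on each side, 1.45% with 1000 bp, and 2.14% at the 5′ end of the gene bounds, where the CAPS level was 1.235% and 8 promoters stayed under 10%. As the mean of single cytosines the TAPSβ level was 13.6% in exons and 34.1% in introns. Without cytosines near a start it was 18.99% in exons and 34.9% in introns, the CAPS level was 4.12% and 4.81%, and the Esrrb exon-to-intron ratio in TAPSβ turned to 1.035. High CAPS bins numbered 209 from 6% and 39 from 10%, and candidates numbered 180 with limits of 20% and 10%. The shares of the genome at these limits were not counted, so whether the excess over the genome holds there was not checked. CAPS calls numbered 353 with at least 10 reads, 34 against the pooled CAPS level, 1549 with adjustment only over cytosines with a modified read, and 837 with strands summed. The share called was above that of the genome under each of these (from 0.198 against 0.125% to 29.9 against 22.8%).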
